A study of Mus musculus with 4 samples.

Results

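The cells described here were B cells in which at least 2 transcripts of Cd83 and Cd86 were counted. A barcode entered when it had at least 200 genes and at most 10% mitochondrial UMIs (unique molecular identifiers, each marking 1 captured transcript). It also needed at least 3 UMIs of the B cell genes Cd79a, Cd79b and Ms4a1 together and no UMI of the T cell genes Cd3e and Cd3d. S100a8 and S100a9 had to make up less than 1% of its UMIs without haemoglobin, and lambda light chain UMIs could not exceed those of Igkc. Of 14200 B cells that met these criteria, 5069 had 2 or more UMIs of Cd83 and Cd86 and are called members, and the other 9131 are called the other B cells. The series held 49121 barcodes after the same filters on genes and mitochondrial UMIs. Members were chosen by their Cd83 and Cd86 UMIs, so the levels of both genes are given as a description without a test.

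The series compared lung and blood cells taken on day 7 from female mice (C57/Bl6, aged 6 to 8 weeks). In the metastasis arm 800000 cells of the mouse melanoma line B16F10 were injected into the spleen, and in the sham arm saline was injected, with the spleen removed in both arms. All mice also carried a subcutaneous tumour from 250000 B16F10 cells. The 4 groups were thus metastasis lung, sham lung, metastasis blood and sham blood, with 1 library each of cells enriched for CD45 and 728, 1998, 292 and 2051 members. No mouse was free of tumour, no mouse kept a spleen, and how many mice went into a library is not stated in the labels.

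CD86 is a costimulatory ligand that binds CD28 and CTLA4 on T cells. CD83 is a surface protein that B cells make soon after their antigen receptor or a Toll-like receptor is engaged. Its membrane part limits the ubiquitin ligase March1, which removes MHC class II and CD86 from the surface, so the pair marks B cells equipped to present antigen. Newly formed transitional B cells, which still carry transcripts of B cell development, and mature follicular B cells both circulate, and the genes of both stages are described below.

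Promoter sequences are shown for 4 genes whose levels differed in the comparisons below. The windows run from 250 bases before to 50 bases after a transcription start, are taken from RefSeq on GRCm38.p6, and are written 5′ to 3′ on the gene's strand. Capitals mark matches, on either strand, to the NF-kB motif (GGGA, any 2 bases, TTCC) or the AP-1 motif TGANTCA. Bcl2a1b and Bcl2a1d encode near-identical inhibitors of cell death and were higher in members, while Nfkbia, an inhibitor of NF-kB, and Ltb, a membrane cytokine of the TNF family, were lower in members and higher in members with Cd83 alone. The Bcl2a1b window is chr9:89199023-89199322 (plus strand), Bcl2a1d is chr9:88731801-88732100 (minus), Nfkbia is chr12:55492598-55492897 (minus) and Ltb is chr17:35194257-35194556 (plus).
Bcl2a1b: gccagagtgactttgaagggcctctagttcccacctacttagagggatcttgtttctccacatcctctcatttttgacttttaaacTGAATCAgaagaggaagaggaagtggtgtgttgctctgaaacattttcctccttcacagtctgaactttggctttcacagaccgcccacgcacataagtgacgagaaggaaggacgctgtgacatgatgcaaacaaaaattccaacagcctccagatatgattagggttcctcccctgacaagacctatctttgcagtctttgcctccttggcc
Bcl2a1d: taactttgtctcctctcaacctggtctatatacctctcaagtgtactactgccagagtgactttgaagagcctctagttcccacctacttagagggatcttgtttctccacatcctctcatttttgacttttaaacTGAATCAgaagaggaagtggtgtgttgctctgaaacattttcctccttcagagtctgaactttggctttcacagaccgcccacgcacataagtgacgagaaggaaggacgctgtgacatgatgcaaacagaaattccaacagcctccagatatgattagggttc
Nfkbia: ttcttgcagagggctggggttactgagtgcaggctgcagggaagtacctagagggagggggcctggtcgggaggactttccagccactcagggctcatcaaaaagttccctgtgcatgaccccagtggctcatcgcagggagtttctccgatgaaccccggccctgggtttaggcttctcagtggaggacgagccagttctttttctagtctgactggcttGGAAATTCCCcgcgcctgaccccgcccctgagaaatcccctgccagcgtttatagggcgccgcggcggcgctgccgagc
Ltb: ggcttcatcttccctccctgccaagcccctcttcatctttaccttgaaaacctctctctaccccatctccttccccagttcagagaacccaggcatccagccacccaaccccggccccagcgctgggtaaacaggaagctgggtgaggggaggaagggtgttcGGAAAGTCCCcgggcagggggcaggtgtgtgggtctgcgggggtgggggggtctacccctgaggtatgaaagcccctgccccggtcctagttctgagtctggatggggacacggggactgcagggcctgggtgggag
Both Bcl2a1 promoters held 1 AP-1 match in the same surrounding sequence and no NF-kB match, and Nfkbia and Ltb each held 1 NF-kB match and no AP-1 match. Of 32851 RefSeq promoter windows, 1.47% held the NF-kB motif and 7.81% the AP-1 motif. Among genes with a listed promoter, the AP-1 motif was in 72 of 788 genes higher in members (9.14%), 43 of 653 genes lower in members (6.59%) and 454 of 8188 genes tested (5.55%). The NF-kB motif was in 2.16%, 2.14% and 1.78% of the same sets of genes. These shares describe letters in a short window, and no binding was measured.

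Many members were only just above the threshold. Exactly 2 UMIs were counted in 1980 of the 5069 members and 4 or more in 1909. Both genes were detected in 2926 members, Cd83 alone in 1097 and Cd86 alone in 1046. Members had a median of 1921, 2467, 2698 and 4165 UMIs without haemoglobin in metastasis lung, sham lung, metastasis blood and sham blood, against 1686, 2131.5, 2381 and 3356.5 in the other B cells of the same libraries. The members were thus the deeper cells in all 4 libraries.

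Haemoglobin made up 43.7% to 78.6% of all UMIs of a library, and levels are given as counts scaled to 1e+06 UMIs of a class without haemoglobin (CPM). Between 34 and 52 kept barcodes were shared by any pair of libraries, and 52 members had a barcode that was also kept in another library. The label was checked against markers that the rule did not use. Cd22, Cd37, Pax5, Ighm and Bank1, which are further B cell markers, were each detected in the members of every library. Pax5, the transcription factor of B cell identity, had 424 to 522 CPM in members and 475 to 551 CPM in the other B cells, against 0.494 to 2.35 CPM in T cells. Bank1, a scaffold protein of B cell receptor signalling, had 1731.4 to 2182.2 CPM in members and 1455 to 1760 CPM in the other B cells, against 1.48 to 6.97 CPM in T cells. H2-Aa, an MHC class II chain, was detected in 98.3% to 98.9% of members, and Fcer2a, the follicular B cell receptor CD23, in 34.9% to 58.1%. The 10 T cell markers summed to 6.25 to 65.3 CPM in members and 8.86 to 74.7 CPM in the other B cells. The 12 dendritic cell markers summed to 251 to 334 CPM in members and 271 to 295 CPM in the other B cells. Cst3 alone had 229 to 305 CPM in members. Ccl22 was at 0 in the members of all 4 libraries and Xcr1 in 3. In metastasis lung, sham lung, metastasis blood and sham blood, 8, 6, 3 and 8 of the 12 were higher in members. Zbtb46 had 10.1, 6.3, 2.1 and 2.1 CPM in members, against 0.53, 2.4, 1.8 and 1.1 CPM in the other B cells.

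A small number of members also carried monocyte transcripts. Counting 13 genes of monocytes (among them Csf1r, Treml4, Ear2, Adgre4, Clec4a1, Clec4a3, Cd300c2, Sirpb1c, Tgfbi, Fcgr4, Ace and Fgd4; all were chosen after the first results were seen), 86 of 5069 members (1.70%) and 39 of 9131 other B cells (0.769%) had 3 or more such UMIs. Among the members 4930 had none and 75 had 12 or more, so nearly all barcodes were at one end or the other. The 86 barcodes had a median of 5247 to 13792 UMIs per library and a median doublet score of 0.287 to 0.394, where the remaining members had 0.0715 to 0.114. Monocytes express Cd86 as well, and the part of their transcripts in the choice of these barcodes was not tested. The 12 markers of monocytes and macrophages, with Marco at 0 in members of all 4 libraries, summed to 970 to 1330 CPM in members and 442 to 573 CPM in the other B cells. With those barcodes left out the sums were 324 to 547 and 285 to 479 CPM. The 12 dendritic cell markers then summed to 195 to 243 CPM in members and 254 to 284 CPM in the other B cells. Of these markers 5, 3, 2 and 5 were then higher in members of metastasis lung, sham lung, metastasis blood and sham blood. Counts of genes and lists below are therefore given with and without them where they changed a count.

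Members took up a larger share of B cells in lung than in blood. Of all B cells, 41.2% were members in metastasis lung (95% exact Clopper-Pearson interval 38.9 to 43.5), 49.5% in sham lung (48.0 to 51.1), 20.9% in metastasis blood (18.8 to 23.1) and 29.3% in sham blood (28.2 to 30.4). These intervals, like all others here, cover counting error only. T cells were counted for reference, with Cd83 detected in 0.398% to 1.96% and Cd86 in 2.19% to 6.16% of them. They passed the same UMI threshold in 0.772%, 0.961%, 0.398% and 2.10% of cells. Their median depths were 2913, 3655.5, 3850.5 and 5514 UMIs, against 1785, 2276, 2444 and 3549 in B cells. The lung share was 1.98 times the blood share in the metastasis arm and 1.69 times in the sham arm.

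With every B cell thinned to 2000 UMIs, the shares were 43.0%, 46.5%, 15.8% and 12.2% in the same order. Thinning left out 1178, 1214, 310 and 161 shallower B cells. The lung shares were then 2.72 and 3.82 times the blood shares in the metastasis and sham arms, and T cells passed in 0.206% to 0.321% of cells. The difference between the arms in blood depended on depth: the metastasis share was 0.712 times the sham share before thinning and 1.30 times after it. In lung the metastasis share was 0.832 times the sham share before thinning and 0.924 times after it, where the intervals of both shares overlapped (38.9 to 47.1 and 44.6 to 48.4). Thinned to 1000 and 3000 UMIs, the lung ratio was 0.857 and 0.851. The intervals were just apart at 1000 UMIs (18.11 to 21.97 and 21.99 to 24.67), where 66 and 128 shallower B cells were left out. They overlapped at 3000 UMIs (42.9 to 59.9 and 56.6 to 64.2).

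**Figure D1:**
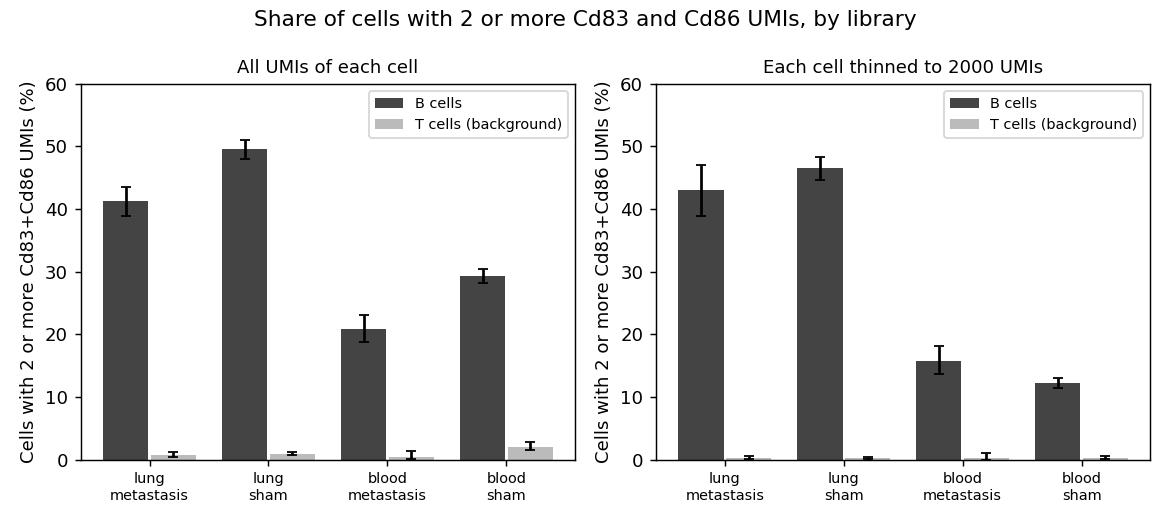
Percent of B cells (dark bars) and T cells (light bars) with 2 or more Cd83 and Cd86 UMIs in each library, from all UMIs (left) and after thinning each cell to 2000 UMIs (right); error bars are exact 95% intervals. Both lung libraries stood above both blood libraries in both panels (43.0% and 46.5% against 15.8% and 12.2% after thinning), and the order of the arms in blood was turned round by thinning.

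Summed over all B cells, members and others together, the levels did not hang on a threshold. Cd83 stood at 424 CPM in metastasis lung and 443 CPM in sham lung, and at 176 CPM in metastasis blood and 129 CPM in sham blood. Cd83 in metastasis was 0.956 times sham for lung (exact 95% interval 0.901 to 1.01) and 1.36 times for blood (1.25 to 1.48). Cd86 stood at 403 CPM in metastasis lung and 471 CPM in sham lung, a ratio of 0.857 (0.807 to 0.910), and at 165 CPM in metastasis blood and 155 CPM in sham blood, a ratio of 1.06 (0.976 to 1.16). Both genes were thus at higher levels in the lung than in the blood libraries in both arms. With 1 library in each group, no difference between tissues or arms has a replicate check and none was tested.

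The 2 genes were found together somewhat more often than their separate frequencies would give. In thinned B cells Cd83 was detected in 48.4%, 51.7%, 24.8% and 20.5% of cells in metastasis lung, sham lung, metastasis blood and sham blood. Cells with both genes were 1.12, 1.14, 1.23 and 1.19 times as frequent as the product of the 2 frequencies, in that order. B cells set aside because their lambda light chain exceeded Igkc passed the Cd83 and Cd86 threshold less often in each library. Their shares were 21.3%, 30.3%, 11.0% and 18.2% before thinning and 26.7%, 33.2%, 8.72% and 7.37% after it, from 60 to 1180 thinned cells a library.

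Members differed from the other B cells of the same libraries in many genes. UMIs were summed per library and class, and edgeR's quasi-likelihood test was run over the 4 library pairs with the library as a block and Benjamini-Hochberg adjustment over all genes. Of 10404 genes tested, 1016 were higher (9.77%) and 836 lower (8.04%) in members at an adjusted p under 0.05. Without the monocyte-bearing barcodes, 896 (8.72%) were higher and 795 (7.74%) lower of 10277, and 783 and 710 genes were called both ways. The libraries are the replicates, they differ in tissue and arm, and nothing in the sources says that they come from separate mice. DESeq2 called 460 genes higher and 307 lower, and without the library block the edgeR test called 104 and 82. Counts of list genes called are to be read against these background shares.

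Immediate early genes, the first transcribed after a receptor signal or after handling of cells, were higher as a group in members. Of 24 such genes tested 14 were higher and 2 lower (3 lower without the monocyte-bearing barcodes), with a median log2 fold change of 0.38 where the median over all genes was 0.0033. Nr4a1, an orphan nuclear receptor gene that follows antigen receptor signalling, had 399, 474, 59.4 and 57.7 CPM in members of metastasis lung, sham lung, metastasis blood and sham blood, against 195, 186, 23.8 and 25.7 CPM in the other B cells. It was higher in members of every library, about as strongly in blood as in lung although its level was several times lower there (log2 1.20, SE 0.07, edgeR adjusted p = 8.3e-14). Fos, an AP-1 subunit, had 290, 263, 327 and 293 CPM in members, against 136, 150, 200 and 180 CPM in the other B cells, in the same library order (log2 0.79, SE 0.06, edgeR adjusted p = 7.1e-10). Atf3, a stress-induced factor that dimerises with AP-1 subunits, was also higher (log2 1.56, SE 0.12), as were Klf6 (0.54), Egr3 (0.73) and Nr4a3 (0.88). Dusp2, a phosphatase that turns off MAP kinases, went the other way (log2 −0.31), as did Gadd45b (−0.25).

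NF-kB genes followed, but not as a block. Of 20 genes for subunits and feedback regulators 9 were higher and 1 lower in members (8 higher without the monocyte-bearing barcodes, Nfkbiz not being called), with a median log2 fold change of 0.16. Rel, the c-Rel subunit that B cells use after activation, had 850, 959, 632 and 479 CPM in members, against 564, 557, 440 and 383 CPM in the other B cells, in the order metastasis lung, sham lung, metastasis blood, sham blood (log2 0.54, SE 0.07, edgeR adjusted p = 5e-05). Traf1, an adaptor of TNF receptors, had 45.9, 63.5, 29.2 and 21.1 CPM in members, against 21.1, 22.8, 10.6 and 9.53 CPM in the other B cells (log2 1.28, SE 0.12). Bcl2a1b had 64.7, 55.0, 65.7 and 35.4 CPM in members, against 23.2, 22.8, 30.8 and 17.4 CPM in the other B cells (log2 1.15, SE 0.10). Groups did not overlap for Bcl2a1b, whose lowest member value lay above its highest value in the other B cells. Bcl2a1d was higher too (log2 1.57, SE 0.16), though reads of these near-identical copies may be split between them. Nfkb1 (log2 0.39) and Nfkbid (0.38) were higher to a lesser degree. Nfkbia, the inhibitor whose promoter with its NF-kB match is printed above, was the exception, with 246, 232, 343 and 274 CPM in members, against 275, 259, 449 and 349 CPM in the other B cells (log2 −0.28, SE 0.06, edgeR adjusted p = 9.3e-04).

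**Figure D2:**
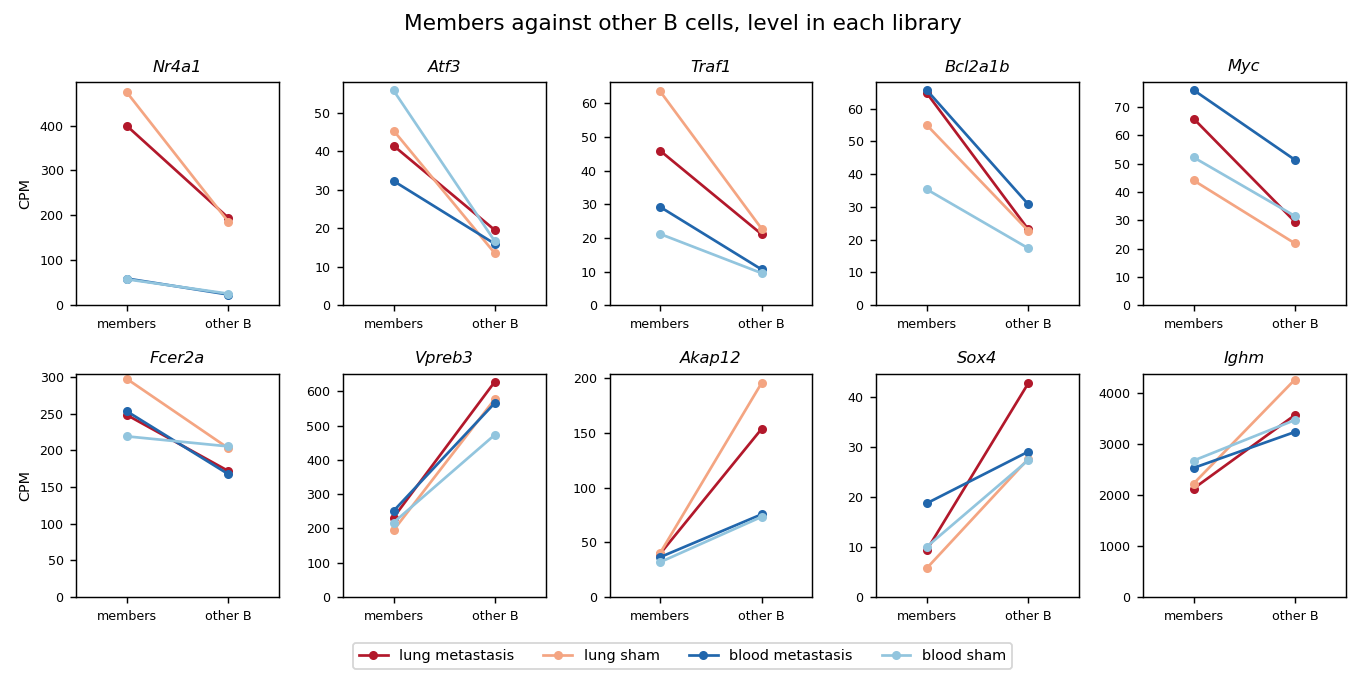
Level of 10 genes in CPM (y axis) in members and in the other B cells, each line being 1 of the 4 libraries. Nr4a1, Atf3, Traf1, Bcl2a1b, Myc and Fcer2a were higher in members of every library, for Fcer2a by little in sham blood (219 against 205 CPM), and Vpreb3, Akap12, Sox4 and Ighm lower in every library.

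Activation genes went both ways. Of 18 activation and costimulation genes other than the rule's own 7 were higher and 4 lower, with a median log2 fold change of 0.18. Without the monocyte-bearing barcodes 8 were higher and 2 lower, as Slamf7 and Cd200 were not called and Icosl was. Gpr183, the oxysterol receptor that positions activated B cells, was higher by 0.54 log2 units (SE 0.06), Tnfrsf1b, a TNF receptor, by 1.04 (SE 0.10; 0.78 without the monocyte-bearing barcodes), Cd44 by 0.48 (SE 0.06; 0.33 without them) and the early activation marker Cd69 by 0.24 (SE 0.06). Cd80, the other ligand of CD28, was at 4.52 to 8.80 CPM in members and 3.43 to 9.49 CPM in the other B cells and did not pass (edgeR adjusted p = 0.085). Cd40, the receptor for T cell help, was lower (log2 −0.27, SE 0.08), as was Cd274, which encodes PD-L1 (−0.29, SE 0.08). Both were lower in members in 3 of 4 libraries. Myc had 66.0, 44.1, 76.1 and 52.3 CPM in members, against 29.5, 21.9, 51.4 and 31.5 CPM in the other B cells (log2 0.80, SE 0.10, edgeR adjusted p = 3.5e-07). Of the 24 genes of the list of Myc and ribosome biogenesis, however, 3 were higher and 1 lower, and 5 and 1 without the monocyte-bearing barcodes, where Ncl and Nop58 passed too.

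Part of the MHC class II genes rose. H2-Aa had 3531, 3660.1, 3033 and 2620.3 CPM in members, against 2997, 2763, 2620 and 2468 CPM in the other B cells (log2 0.22, SE 0.05, edgeR adjusted p = 0.003). H2-Ab1, H2-Eb1 and H2-Eb2 passed as well, so 4 of 11 class II genes were higher and none lower (median log2 0.16), and 7 were higher without the monocyte-bearing barcodes (median 0.20). Cd74, the invariant chain, did not pass (log2 −0.07, edgeR adjusted p = 0.3).

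Genes of transitional B cells were lower in members. Of 9 such genes tested 7 were lower and none higher, with a median log2 fold change of −0.92. Vpreb3, a chaperone of the pre-B receptor, had 232, 195, 251 and 217 CPM in members, against 628, 578, 566 and 473 CPM in the other B cells (log2 −1.34, SE 0.06). The ranges of Vpreb3 did not overlap. In thinned cells 28.7% to 34.2% of members had a UMI of Vpreb3 or Akap12, counted together, against 47.6% to 53.3% of the other B cells. Akap12, a scaffold of kinase A, had 39.6, 40.3, 36.5 and 31.9 CPM in members, against 153, 195, 75.5 and 73.2 CPM in the other B cells (log2 −1.69, SE 0.25, edgeR adjusted p = 0.021). Sox4, a factor of B cell development, was lower by log2 −1.66 (SE 0.17), Myb by −0.92 (SE 0.23), Cd93 by −0.63 (SE 0.17) and Cd24a by −0.50 (SE 0.05). Members were nearly level with each other in Akap12, and it was the other B cells that differed between lung and blood.

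Follicular genes were partly higher in members. Of 18 resting follicular genes 5 were higher and 2 lower (6 and 2 without the monocyte-bearing barcodes), and Fcer2a (log2 0.39, SE 0.09) and Cr2, the complement receptor CD21 (0.51, SE 0.08), were among those higher. Ighm, the heavy chain of IgM, had 2131, 2227, 2536 and 2680.4 CPM in members, against 3574, 4272, 3243 and 3477 CPM in the other B cells (log2 −0.62, SE 0.09, edgeR adjusted p = 0.0044). Ighd, the heavy chain of IgD, did not pass with all barcodes (log2 0.10, edgeR adjusted p = 0.2) and passed without the monocyte-bearing ones (0.15, edgeR adjusted p = 0.044). In thinned cells IgM transcripts were found in 94.1% to 96.8% of members and 97.0% to 98.2% of the other B cells, and switched heavy chains in 0.735% to 1.56% of members and 0.834% to 1.49% of the other B cells. The receptors for the survival factor BAFF, Tnfrsf13c (log2 −0.68, SE 0.07) and Tnfrsf13b (−0.59, SE 0.07), were lower.

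Trafficking genes were higher in 12 of 18 cases and lower in 2. Without the monocyte-bearing barcodes 10 were higher, as Itgal (log2 0.11) and Itgb2 (0.09), both integrin chains of leukocytes, were not called. Rgs1, Itgb1 and Itgb2, 3 of the 12, changed sign when cells were thinned to 2000 UMIs before the rule (log2 −0.15, −0.17 and −0.027). Ccr6, the receptor for CCL20, had 86.1 and 88.6 CPM in members of metastasis and sham lung and 22.9 and 31.0 CPM in members of metastasis and sham blood, against 30.6, 37.1, 23.0 and 17.4 CPM in the other B cells (log2 1.00, SE 0.16). Its level in members was above that in the other B cells in 3 of 4 libraries and level with it in metastasis blood. Itgb7, an integrin chain for homing to mucosa, was higher (log2 0.55, SE 0.08), as were Cxcr5 (0.25) and Ccr7 (0.17). S1pr4 (log2 −0.48) and Cnr2, a cannabinoid receptor (−0.33), were lower. Among cytokine genes Ebi3, a subunit of IL-27 and IL-35, was higher at a low level (5.21 to 7.54 CPM in members and 2.87 to 3.19 CPM in the other B cells). Ltb (log2 −0.40, SE 0.06) and Il12a, the p35 subunit (−0.75, SE 0.11), were lower, as was Il16. Ccl5, a chemokine that NK and T cells make in quantity, was lower too (log2 −0.53, SE 0.10), with 167, 253, 0 and 48.0 CPM in members of metastasis lung, sham lung, metastasis blood and sham blood, against 180, 379, 0.709 and 79.9 CPM in the other B cells. The 7 NK cell markers summed to 194, 359, 1.04 and 56.0 CPM in members of the same libraries, against 175, 498, 2.13 and 85.2 CPM in the other B cells. All 7 were detected in members except in metastasis blood, where 6 of them, Nkg7, Gzma and Prf1 among these, were at 0, and their part in the Ccl5 values was not tested.

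The genes with the largest fold changes depended on the few monocyte-bearing barcodes. With all barcodes the 15 named genes highest in members included Pid1 (log2 2.19), Ifitm2 (1.76), Ifitm3 (1.75), Gsr (1.65), Ccl6 (1.64) and Alox5ap (1.55). Without those barcodes Ifitm2 was at −0.23, Ifitm3 at −0.28, Alox5ap at −0.11 and Gsr at 0.27, none past the threshold (edgeR adjusted p = 0.62, 0.33, 0.83 and 0.51), and Pid1 and Ccl6 fell under the filter on low counts. The 15 named genes then included Atxn1 (1.44), Atf3 (1.29), Traf1 (1.28), Pde8a (1.24), Il9r (1.18), Nr4a1 (1.09) and Bcl2a1b (1.06). The lower genes were hardly touched, with Akap12 at −1.68, Sox4 at −1.63 and Vpreb3 at −1.30.

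Several of these genes followed the number of Cd83 and Cd86 UMIs on both sides of the threshold. Without the monocyte-bearing barcodes, Traf1 in sham lung had 14.1, 32.8, 51.8 and 71.8 CPM in cells with 0, 1, 2 to 3 and 4 or more of these UMIs. Vpreb3 in the same cells had 705, 426, 236 and 158 CPM. Over all barcodes the class with 0 UMIs held 5744 B cells and the class with 1 UMI 3387. Median depth rose over the 4 classes, from 1654 to 2067.5 UMIs without haemoglobin in metastasis lung and from 2095 to 2628 in sham lung. In metastasis blood it rose from 2333 to 3216 and in sham blood from 3244 to 5520. The part of depth in the levels by class was not tested. Just inside and just outside the rule, with all barcodes, cells with exactly 2 UMIs had 290, 253, 317 and 258 CPM of Vpreb3, against 407, 424, 371 and 330 CPM in cells with 1 UMI. Nr4a1 stood at 356, 363, 30.0 and 42.6 CPM in cells with exactly 2 UMIs, against 252, 251, 23.5 and 35.0 CPM in cells with 1 UMI. Traf1 and H2-Aa were also higher at 2 UMIs than at 1 in all 4 libraries. Myc was so in 3, and in metastasis blood it had 59.9 CPM at 2 UMIs, against 64.1 CPM at 1 UMI. Fcer2a was level in sham blood, with 227.3 CPM at 2 UMIs, against 227.9 CPM at 1 UMI, and higher at 2 UMIs in the other 3 libraries.

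**Figure D3:**
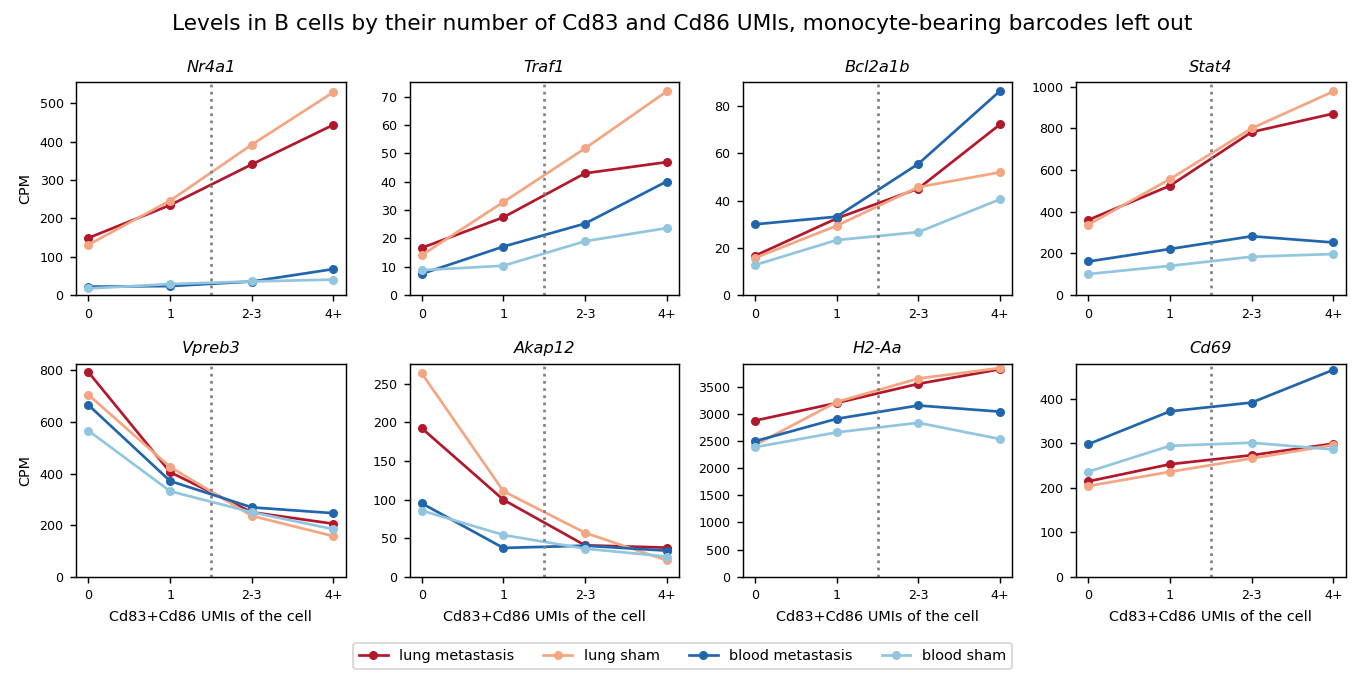
Level of 8 genes in CPM (y axis) in B cells with 0, 1, 2 to 3 and 4 or more Cd83 and Cd86 UMIs (x axis), without monocyte-bearing barcodes; each line is 1 library and the dotted line is the threshold of the rule. Traf1 rose and Vpreb3 fell with the UMI class in all 4 libraries, and the lung and blood libraries were apart for Nr4a1 and Stat4 in every class.

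Members with Cd83 at 2 or more UMIs and no Cd86 were compared with members with Cd86 at 2 or more and no Cd83, to see how members vary among themselves. The same edgeR test over 4 library pairs called 45 genes higher (0.702%) and 72 lower (1.12%) in Cd83-only members of 6414 tested. Without the monocyte-bearing barcodes 27 (0.435%) and 22 (0.354%) of 6211 were called, 25 and 16 of them also in the full comparison. Leaving out sham blood gave 16 higher and 18 lower, and leaving out sham lung 24 higher. Fewer genes were called than for members against other B cells, 1.82% in either direction. The split rested on fewer cells, 1097 with Cd83 alone and 1046 with Cd86 alone. On simulated data its test recovered 25 of 100 genes changed 1.5-fold and 76 of 100 changed 2-fold, against 42 and 97 for members. The 2 counts of calls therefore do not show which comparison had more differing genes.

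Cd83-only members were higher in 4 of 20 NF-kB genes (Nfkbia, Nfkbid, Bcl2a1b and Bcl2a1d) and lower in none, with and without the monocyte-bearing barcodes. Of 24 immediate early genes 2 were higher (Egr1 and Egr3), and Atf3 was lower with all barcodes but not called without the monocyte-bearing ones. Egr1 was higher in 3 of 4 libraries, and in metastasis blood it had 8.76 CPM in Cd83-only members, against 35.5 CPM in Cd86-only members. Nfkbid, an atypical inhibitor of NF-kB, had 116, 114, 145 and 107 CPM in Cd83-only members of metastasis lung, sham lung, metastasis blood and sham blood, against 73.2, 73.7, 50.7 and 56.7 CPM in Cd86-only members (log2 0.86, SE 0.14, edgeR adjusted p = 1.3e-05). The groups did not overlap. Nfkbia was higher by 0.60 (SE 0.10), so the inhibitor that was lower in members as a whole was higher among those with Cd83 alone. Ltb had 638, 567, 811 and 861 CPM in Cd83-only members, against 377, 432, 624 and 704 CPM in Cd86-only members (log2 0.44, SE 0.08), and was higher in each library. Il4i1, an amino acid oxidase gene, had 31.1, 21.1, 43.8 and 51.2 CPM in Cd83-only members, against 29.3, 12.3, 10.1 and 10.3 CPM in Cd86-only members (log2 1.73, SE 0.27). In metastasis lung the 2 values of Il4i1 were close, and the difference was in the other 3 libraries. Swap70, a switch recombination and actin-binding protein, had 257, 272, 346 and 279 CPM in Cd83-only members, against 143, 134, 177 and 171 CPM in Cd86-only members (log2 0.85, SE 0.10, edgeR adjusted p = 8.4e-10). Egr3 (1.22, SE 0.27), Lef1 (0.98, SE 0.20), Rilpl2 (0.75, SE 0.14) and Fam129c (1.11, SE 0.22) were also higher. Fam129c, in contrast, was lower in members than in the other B cells (log2 −1.31).

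Cd86-only members were higher in S100a6, Anxa2, Ly6a, Hepacam2 and Lamc1, also without the monocyte-bearing barcodes. S100a6, a calcium-binding protein, had 93.2, 64.1, 43.8 and 409 CPM in Cd83-only members, against 377, 173, 395 and 1415 CPM in Cd86-only members (log2 −1.84, SE 0.12). Sham blood had the highest S100a6 in both sets. Without the monocyte-bearing barcodes the fold change was −1.62 (SE 0.12), and that of Anxa2, an annexin, was −1.60 (SE 0.26). Ly6a, which encodes Sca-1, had 141, 148, 96.4 and 124 CPM in Cd83-only members, against 198, 200, 152 and 219 CPM in Cd86-only members (log2 −0.63, SE 0.11), and the sets did not overlap. Plcb1 (−4.89), Ifitm3 (−3.09), Ifitm2 (−3.06), Alox5ap (−2.86), Gsr (−2.48) and Slc8a1 (−2.42) were called with all barcodes and fell under the filter on low counts when the monocyte-bearing ones were left out.

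**Figure D4:**
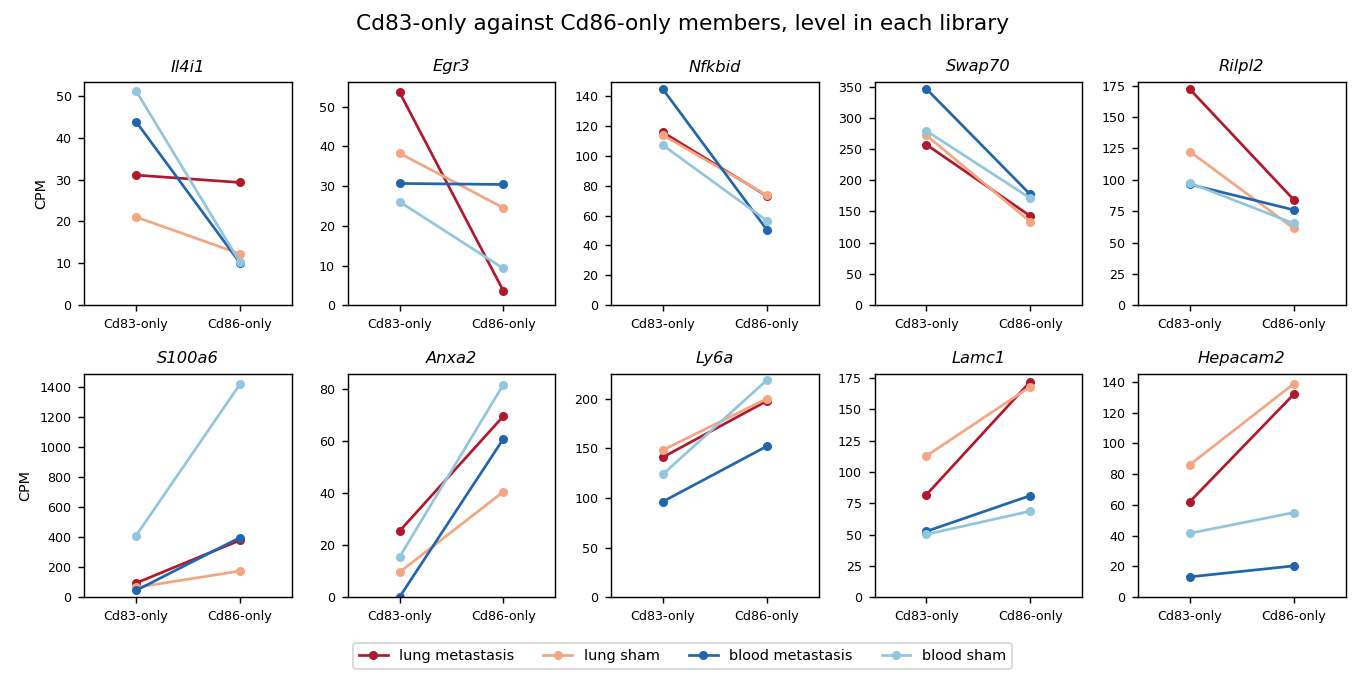
Level of 10 genes in CPM (y axis) in Cd83-only and Cd86-only members, each line being 1 of the 4 libraries. Nfkbid, Swap70 and Rilpl2 were higher in Cd83-only members in every library, and S100a6, Anxa2, Ly6a, Lamc1 and Hepacam2 in Cd86-only members.

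Between the arms, members of each tissue could be compared only as 1 library against 1 library. A gene was called at 1.5-fold or more with an exact 95% interval that excluded equality, which is no test across mice. In lung 241 of 8621 genes were higher (2.80%) and 168 lower (1.95%) in metastasis, and in blood 258 of 9709 were higher (2.66%) and 276 lower (2.84%). Values of the other B cells and of T cells, which come from the same libraries, are given beside those of members.

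Of the 22 gene lists, the type I interferon list had the most genes called higher in both tissues, 5 in lung and 3 in blood (4 and 5 without the monocyte-bearing barcodes). Isg15, a ubiquitin-like protein, had 145 CPM in members of metastasis lung and 61.3 CPM in members of sham lung (log2 1.24, 95% interval 0.99 to 1.48), and 120 CPM in metastasis blood and 15.7 CPM in sham blood (2.94, 2.59 to 3.28). On the same log2 scale it differed by 0.23 in lung and 2.97 in blood in the other B cells, and by 0.66 and 2.68 in T cells. Rsad2, which encodes viperin, had 118 CPM in metastasis lung and 60.2 CPM in sham lung (log2 0.97, 0.71 to 1.23), and 65.7 CPM in metastasis blood and 19.2 CPM in sham blood (1.77, 1.35 to 2.18). In T cells Rsad2 differed by 0.85 in lung and 1.70 in blood, so these ratios were not confined to members. The list had 15 measured genes in lung, where Irf7 was lower and Zbp1 was not called without the monocyte-bearing barcodes, and 20 in blood. Few members carried the transcripts: Isg15 was found in 55 of 728 and 113 of 1998 members of metastasis and sham lung, and in 24 of 292 and 119 of 2051 of metastasis and sham blood. In metastasis blood 28 of 115 Isg15 UMIs were in 1 barcode, and in sham lung 66 of 339.

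Calls of activation and follicular genes between the arms are to be read against the shares over all genes. These were 2.80% higher and 1.95% lower in lung, and 2.66% higher and 2.84% lower in blood. Of the activation list 1 of 14 measured genes, Cd200, was higher in lung and none lower. In blood 2 of 17 were higher, Slamf7 (log2 0.64, 0.19 to 1.07) and Cd200, and Tnfrsf1b was lower (−0.84, −1.69 to −0.098), which was not called without the monocyte-bearing barcodes (−0.17). Of 18 resting follicular genes none was called in lung, and S1pr4 was lower in blood, with 44.8 CPM in metastasis and 80.7 CPM in sham (log2 −0.85, −1.325 to −0.41). H2-Aa differed by log2 −0.05 in lung and 0.21 in blood, Fcer2a by −0.26 and 0.21, Cd69 by −0.01 and 0.53, and Nr4a1 by −0.25 and 0.04. These 4 genes did not reach 1.5-fold. No gene of the MHC class II list was called in lung and 1 of 11, H2-Eb2, in blood. Cd200, a ligand that restrains myeloid cells, was higher in both tissues, with 46.5 CPM in metastasis lung and 25.3 CPM in sham lung, and 55.2 CPM in metastasis blood and 31.9 CPM in sham blood. On the log2 scale Cd200 differed by 0.88 in lung members (0.45 to 1.29) and 1.37 in lung T cells, and by 0.79 in blood members (0.35 to 1.21) and 1.03 in blood T cells. Bcl2a1b was higher in blood (0.89, 0.49 to 1.28), with 65.7 CPM in metastasis and 35.4 CPM in sham, and not called in lung. Il1b was called in lung with all barcodes (log2 1.10, 0.80 to 1.40) and not without the monocyte-bearing ones (0.34).

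Some extremes of both lists rested on few barcodes, and others were spread over many. In lung the highest ratios were of airway and alveolar genes, and 261 of the 277 Sftpc UMIs in members of metastasis lung lay in 1 barcode. Scgb1a1, a club cell secretory protein, had 5364 CPM in members of metastasis lung and 280 CPM in sham lung, and 88.0% of its metastasis UMIs were in 5 barcodes. At least 1 Scgb1a1 UMI was found in 430 of 728 members of metastasis lung and 617 of 1998 of sham lung. Cox6b2, a subunit of cytochrome c oxidase, had 23.4% of its metastasis UMIs in 5 barcodes. It had 124 UMIs in 60 of 728 members of metastasis lung and 20 UMIs in 20 of 1998 of sham lung (log2 4.43, 3.74 to 5.19). Its log2 ratio was 2.37 in the other B cells and 3.57 in T cells. Mki67 was found in 20 of 728 members of metastasis lung and 10 of 1998 of sham lung (log2 3.23, 2.40 to 4.13), with 16 of its 46 UMIs in metastasis lung in 1 barcode. In thinned cells Mki67 or Top2a was found in 5.0% of members of metastasis lung and 1.64% of sham lung. In the other B cells of these libraries the shares were 8.55% and 2.19%, so the difference was not confined to members. Among genes lower in metastasis lung, Cep152 had 6 UMIs in 6 members of metastasis lung and 74 UMIs in 72 members of sham lung. Ears2 had 4 UMIs in 4 members and 46 UMIs in 45 members of the same libraries. In blood the platelet gene Pf4 had 72 of its 119 UMIs in metastasis members in 1 barcode. Tppp had 1 UMI in members of metastasis blood and 115 UMIs in 81 members of sham blood. Ccl5 and Gzma had no UMI in members of metastasis blood, where 3 counts over the library set the limit, and 567 and 351 UMIs in sham blood, from 26 and 13 barcodes.

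Lung members had more Nr4a1, Nr4a3 and Dusp5 transcripts than blood members in both arms. Called in the same direction in both arms, 279 of 6038 genes were higher (4.62%) and 95 lower (1.57%) in lung. In the metastasis arm alone 8.42% of genes were called higher and 5.23% lower in lung, and in the sham arm alone 9.47% and 7.82%. Of the 509 genes called higher in the metastasis arm, 477 had the same sign in the other B cells, as had 269 of the 316 called lower. In the sham arm these numbers were 946 of 976 and 646 of 806. Of the trafficking list 6 of 17 measured genes were higher and none lower in lung in the metastasis arm (4 higher without the monocyte-bearing barcodes), and 7 of 18 higher and none lower in the sham arm. The list of B cell receptor signalling had 3 of 21 genes lower and none higher in the metastasis arm, and 2 of 22 higher and 1 lower in the sham arm. Nr4a1 had 399 CPM in lung and 59.4 CPM in blood members of the metastasis arm (log2 2.75, 2.36 to 3.17), and 474 CPM in lung and 57.7 CPM in blood members of the sham arm (3.04, 2.92 to 3.16). Nr4a3, a relative, had 31.4 CPM in lung and 6.25 CPM in blood in the metastasis arm, and 40.5 CPM in lung and 2.54 CPM in blood in the sham arm. Dusp5, a phosphatase induced by MAP kinases, was higher in lung by log2 2.72 and 2.58 in the metastasis and sham arms. Jun was lower in lung in both arms (−0.60 and −0.68). Of the immediate early list 9 of 24 measured genes were higher and 3 lower in lung in the metastasis arm, and 10 of 26 higher and 5 lower in the sham arm (9 and 3 without the monocyte-bearing barcodes). T cells showed Nr4a1 at 3.48 and 1.52 and Dusp5 at 2.74 and 2.66 in the same arms. In the other B cells of the metastasis arm Nr4a1 was at 3.03, Nr4a3 at 3.46, Dusp5 at 2.585 and Jun at −0.28. Lung and blood cells were prepared by different steps, so tissue and preparation cannot be told apart.

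B3gnt7, a glycosyltransferase gene, had 37.1 CPM in lung and 8.34 CPM in blood in the metastasis arm, and 47.6 CPM in lung and 1.78 CPM in blood in the sham arm (log2 2.15 and 4.74). Ccr6 was higher in lung members by 1.91 and 1.52 and in other B cells by 0.41 and 1.09 (metastasis and sham arm). Cxcr4 and S1pr1 were higher as well, by 1.07 and 1.32 and by 0.86 and 0.71. Traf1 was higher in lung by 0.65 (0.01 to 1.34) in the metastasis arm and 1.59 (1.35 to 1.83) in the sham arm. In the metastasis arm it was not called without the monocyte-bearing barcodes (0.54). The other B cells of that arm had log2 ratios of 3.12 for B3gnt7, 0.30 for Cxcr4, 0.91 for S1pr1 and 0.99 for Traf1.

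Lower in lung members were Cdk8, March1 and Il12a. Cdk8, a kinase of the Mediator complex, had 206 CPM in lung and 815 CPM in blood in the metastasis arm, and 262 CPM in lung and 1178 CPM in blood in the sham arm. It was detected in 35.0% and 47.9% of lung members of the metastasis and sham arms, and in 92.1% and 98.3% of blood members. The T cell log2 ratios of −2.08 and −2.43 were close to those of members (−1.98 and −2.17). March1, the ligase that takes MHC class II and CD86 off the surface, had 232 CPM in lung and 610 CPM in blood in the metastasis arm (log2 −1.39, −1.59 to −1.20), and 244 CPM in lung and 561 CPM in blood in the sham arm (−1.20, −1.28 to −1.11). In the other B cells the March1 log2 ratios were −0.80 and −0.58. Il12a differed by −1.48 and −1.50 in the metastasis and sham arms. In the other B cells of the metastasis arm Cdk8 was at −2.32 and Il12a at −1.06.

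**Figure D5:**
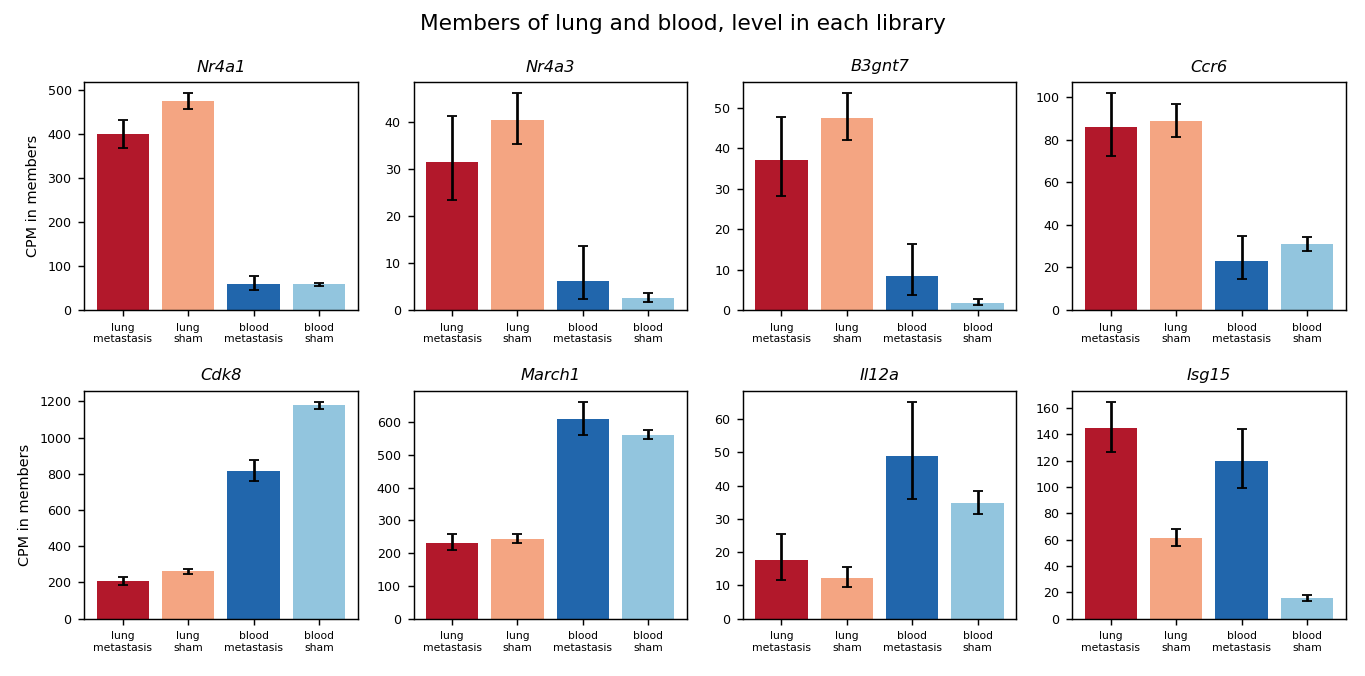
Level of 8 genes in CPM (y axis) in the members of each library; error bars are exact 95% Poisson intervals, which cover counting error only. Nr4a1, Nr4a3, B3gnt7 and Ccr6 were higher in both lung libraries, Cdk8, March1 and Il12a in both blood libraries, and Isg15 in the metastasis library of each tissue.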

How the data were processed

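Gene expression of single cells was measured with droplets in 4 libraries, 1 for each of metastasis lung, sham lung, metastasis blood and sham blood. The authors deposited raw UMI counts for 32285 genes, and Cell Ranger 7.0.0, Seurat 4.3.0.1, R 4.3.1 and the build GRCm38.p6 are named per the submitters' processing notes. The libraries held 112079231 to 132540945 UMIs in 18115 to 36125 barcodes. The members and all gene lists were chosen with earlier results of these data known. Counts were summed per library and class and tested with edgeR 4.0.16 (R 4.3.3; TMM factors, low-count filter, robust quasi-likelihood fit, Benjamini-Hochberg adjustment), with the library as a block because both classes come from the same library; DESeq2 1.42.0 was an alternative. Levels are CPM of a class without haemoglobin. Between single libraries, ratios carry exact conditional binomial 95% intervals, and genes with under 50 UMIs over both libraries were left out. Python 3.11.15 with scanpy 1.11.5 read the matrices, and doublets were scored with Scrublet but kept in (231 members scored 0.3 or more). T cells were barcodes with 2 or more Cd3e and Cd3d UMIs, no UMI of the 3 B cell genes and under 1% S100a8 and S100a9. On simulated data the test of members recovered 42 of 100 genes changed 1.5-fold and 97 of 100 changed 2-fold, with 5 false calls among 10188 genes. The simulation gave every gene the same spread beyond counting error and changed only genes with many UMIs. Its rates of recovery and of false calls therefore need not hold for the real counts. Genes were named by rank of fold change among called genes (15 higher and 12 lower for members, 8 each way for Cd83-only members and between the arms, 6 each way between tissues, and 4 from each list), beside fixed activation and B cell genes. Stat4 lay outside this rule and was named after its values were seen. Some members of the gene lists are not reported here by name. Intervals cover counting error only.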

Additional observations from a re-analysis of the deposited data

How the results depend on the processing

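In the comparison of members with the other B cells (1016 genes higher, 836 lower), DESeq2 called 460 and 307, the fit with no replicate block 104 and 82, thinning to 2000 UMIs before the rule 599 and 556, and members by Cd83 alone 518 lower; leaving out 1 library gave 728 to 868 higher and 570 to 702 lower. For Cd83-only against Cd86-only members (45 and 72), DESeq2 called 5 and 24, no replicate block 1 and 2, no filter on low counts 178 lower, doublet scores of 0.3 or more left out 32 lower, cells with myeloid transcripts left out 9 and 7, and monocyte-bearing barcodes left out 27 and 22, the last chosen after seeing the data; leaving out 1 library gave 16 to 32 higher and 18 to 88 lower. Between the arms in lung (241 and 168), haemoglobin kept in totals gave 147 and 349, and thinning before the rule 106 lower. In blood (258 and 276) the same settings gave 140 and 490, and 167 and 135, and leaving out cells with myeloid transcripts 175 lower. For lung against blood (279 and 95) haemoglobin kept in totals gave 172 and 285, thinning 155 and 29, and a threshold of 3 UMIs 63 lower. The metastasis to sham ratio of the share of members in lung (0.832) was 0.857, 0.924 and 0.851 after thinning to 1000, 2000 and 3000 UMIs. That lung ratio was 0.698 at 3 UMIs or more and 0.705 with Cd86 alone. In blood (0.712) it was 0.606 with Cd86 alone, and it turned round after thinning to 1000, 2000 and 3000 UMIs, to 1.30, 1.295 and 1.11.

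Single genes that changed sign were, for members against the other B cells, Ifitm2 (−0.46) and Ifitm3 (−0.040) without cells with myeloid transcripts, and Ifitm2 (−0.23), Ifitm3 (−0.28) and Alox5ap (−0.11) without monocyte-bearing barcodes. Thinning before the rule turned round Ifitm3 (−0.17), S100a4 (−0.56, edgeR adjusted p = 0.025), Alox5ap (−0.035), Il1b (−0.056), S100a6 (−0.47, edgeR adjusted p = 2.4e-05), Rgs1 (−0.15), Cd9 (−0.18), Itgb1 (−0.17), Vim (−0.089) and Itgb2 (−0.027). Between the arms in lung, Top2a was at −0.44 as a mean over cells, Il1b at −0.27 without doublets, and Mthfd2 at −0.21 and Ccl5 at 0.087 after thinning. In blood Ccnd2 was at 0.078 after thinning, and Cd36 at 0.47 without cells with myeloid transcripts and 0.19 without monocyte-bearing barcodes. The cause was not tested for any of these. Of the other values for single genes, 3612 kept their direction and their side of the threshold and 678 kept only their direction. With 1 library in each group, the arms and tissues have no replicate check, and genes with few UMIs in members of metastasis blood, the smallest set, are limited by depth.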
